A study of Mus musculus with 12 samples.

Results

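Livers of mice that carry a constitutively active FoxO3 transgene and were given metformin were compared with livers of wild type mice, 4 arrays against 4 of the 12 in the series. All arrays titled as metformin-administered and all titled as control animals were taken. Rows of the table that name exactly 1 gene gave 19938 genes, and 14953 remained after the 25% with the lowest mean signal were left out. The animals were 7 weeks old and had a mixed C57BL/6 and NMRI origin, with at least 4 backcross generations to C57BL/6. The transgene stood under the LAP promoter, which is in common use to drive genes in hepatocytes. Dose, route and duration of metformin are not in the labels, nor is sex, and no wild type animal given metformin is among the 12. Transgene and drug therefore cannot be told apart here. The third group, 4 untreated mice with the same transgene, is used only for orientation.

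FoxO3, a transcription factor of the forkhead family, leaves the nucleus when insulin signals, and in liver FoxO factors are known for switching on gluconeogenic, stress-response and insulin-sensitivity genes. Metformin is a glucose-lowering biguanide that slows mitochondrial respiration and leads to activation of AMP-activated protein kinase (AMPK), the energy sensor of the cell. Liver also differs strongly between the sexes, since the rhythm of growth hormone release sets the level of many cytochrome P450, sulphotransferase and acyl-CoA thioesterase genes through the factor STAT5B. All values below are the deposited log2 signals of whole-transcript arrays, on which a difference of 1 is a doubling. Values after ± are standard errors of the limma fit unless called SD, and a gene is said to have risen or fallen when its limma p, adjusted over all tested genes, was under 0.05.

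The sex chromosome transcripts divided the arrays, and this bears on every result that follows. Xist, a long RNA made by the silenced X chromosome, read 11.69, 11.92, 10.57 and 11.95 in metformin-treated livers 1 to 4. In wild type livers 1 to 4 it read 11.73, 4.36, 4.30 and 11.66. The Y-linked genes Eif2s3y, Kdm5d and Uty ran the other way, with Eif2s3y at 3.77 to 4.30 in metformin-treated livers and at 3.88, 8.68, 8.93 and 3.82 in wild type livers. All 4 metformin-treated livers thus had Xist signal, as did wild type livers 1 and 4, while wild type livers 2 and 3 and all untreated transgenic livers had Y-linked signal. Differences are given from all 4 wild type livers and, for many of the genes named, again from the 2 wild type livers with Xist signal. For the latter the wild type arrays were split in the same fit. Metformin-treated liver 3 also stood apart. Its mean correlation with its own group was 0.974, against 0.987 to 0.989 for the other 3, and it lay farthest from the group median in 55.4% of tested genes.

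Foxo3 itself did not separate the groups. It read 8.79, 8.89, 8.54 and 8.85 in wild type and 8.83, 9.11, 8.29 and 8.97 in metformin-treated livers. The difference was 0.035 (95% limma interval -0.31 to 0.38; two-sided exact permutation test, p = 0.857, where 0.0286 is the smallest p for 4 against 4). The 2 ranges overlapped, and the sign turned against the wild type livers with Xist signal (-0.017). It is unknown here if the probes read RNA of the transgene, and the value does not bear on the labels.

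Across the liver transcriptome 364 of 14953 genes differed (2.43%), 148 of them higher (0.990%) and 216 lower (1.44%) in metformin-treated transgenic livers. Most of the differences were small. Their median was 0.49 among the genes that rose and -0.55 among those that fell, against -0.02 over all tested genes, and 12 rose and 6 fell by at least 1 log2 unit. Against the 2 wild type livers with Xist signal 12 genes passed (0.0803%), and with the sex chromosome signal as a covariate 14 passed (0.0936%). The size of the differences changed less than the number of calls. The 148 genes that rose kept a median of 96.9% of their difference against the 2 wild type livers with Xist signal, and 128 of them kept at least 80%. The 216 that fell kept a median of 98.7%, and 213 of them kept at least 80%. Over all tested genes the median was 97.0%, and 9502 of 14953 kept at least 80%, so the medians of the 2 sets are near that of any gene. These 2 livers are among the 4 that made the calls, so the shares describe the same arrays again. Without metformin-treated liver 3 the count was 775, and without liver 4 it was 70.

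**Figure D1:**
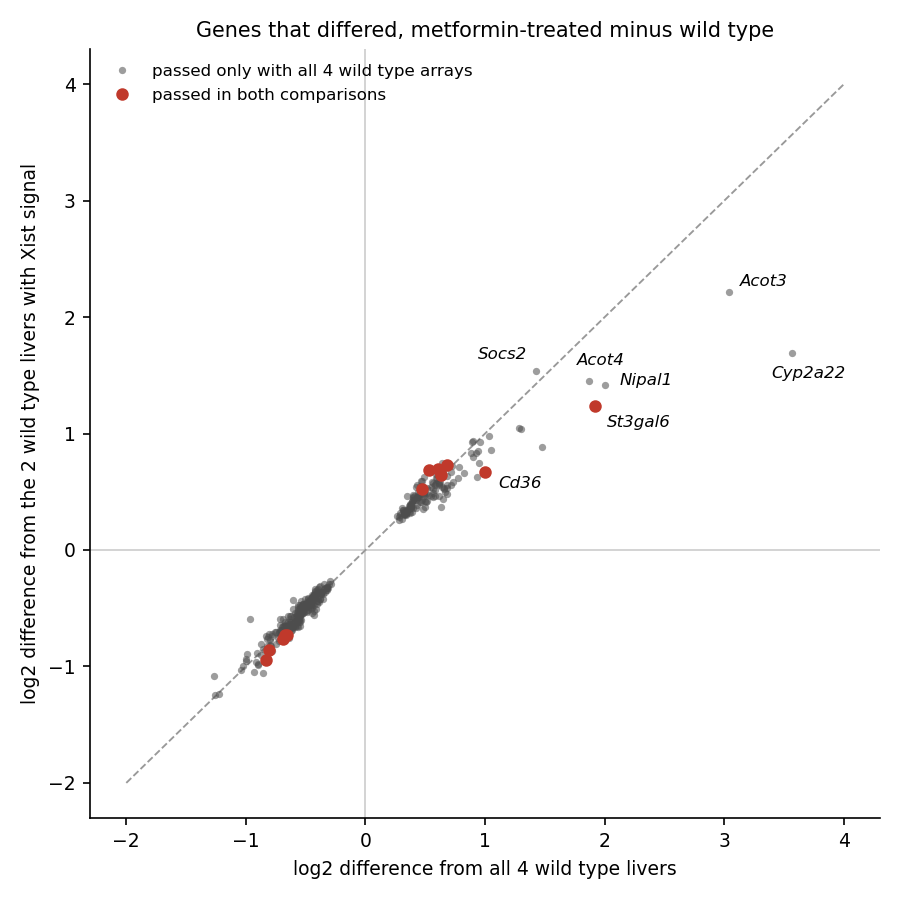
Each point is 1 of the 364 genes that differed. The horizontal axis is its log2 difference, metformin-treated minus all 4 wild type livers, and the vertical axis is the difference from the 2 wild type livers with Xist signal. The dashed line marks equal values and the 12 genes that passed in both are red. Most points lie along the line, while Cyp2a22 and Acot3 lie well below it.

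The genes named first are the 10 largest rises and the 10 largest falls among genes that passed and whose groups do not overlap, so the gap between the groups is part of how they were chosen. Cux2 rose by more than the last 2 of the rises, with overlapping groups, and is described with the sex-biased genes. Cyp2a22, a cytochrome P450 gene on chromosome 7 (chr7:26931631-26939413, GRCm38.p6), read 9.93, 6.19, 6.25 and 9.99 in wild type and 12.003, 11.85, 10.82 and 11.94 in metformin-treated livers, a rise of 3.56 ± 0.82 (adjusted p = 0.0444). The wild type livers with Y-linked signal were the 2 low ones. Against the livers with Xist signal the difference was 1.70 (adjusted p = 0.129).

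Acot3 and Acot4 encode thioesterases that free fatty acids from coenzyme A in peroxisomes, and they lie side by side on chromosome 12 (chr12:84052144-84060400 and chr12:84037254-84044723, GRCm38.p6). Their sequences are alike, so the probes may read both. Acot3 read 8.73, 7.41, 6.04 and 8.02 in wild type and 11.01, 10.58, 10.14 and 10.65 in metformin-treated livers, a rise of 3.04 ± 0.67 (adjusted p = 0.0394). Every metformin-treated value lay above the wild type range, by over 1 log2 unit. Against the livers with Xist signal the difference was 2.22 (adjusted p = 0.287). Acot4 read 9.74, 9.20, 8.27 and 9.42 against 11.22, 11.24, 10.64 and 11.01, a rise of 1.87 ± 0.41 (adjusted p = 0.0394), or 1.45 against the livers with Xist signal.

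Of these 20 genes, St3gal6 was the one that also passed against the livers with Xist signal. It encodes a sialyltransferase that adds sialic acid to glycan ends. It read 8.16, 7.07, 7.28 and 8.92 in wild type and 9.75, 9.71, 9.86 and 9.77 in metformin-treated livers, a rise of 1.92 ± 0.31 (adjusted p = 0.0132). The metformin-treated livers lay close together (SD 0.061, n = 4) and above every wild type liver. Against the livers with Xist signal the rise was 1.23 (adjusted p = 0.031). Untreated transgenic livers, all with Y-linked signal, read 7.17 to 7.42.

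Further rises of the 10 were those of Nipal1, Vldlr, Naaladl2 and Alg6. Nipal1, a magnesium transporter gene, stood at 6.06 to 8.05 in wild type and 9.28 to 9.48 in metformin-treated livers (2.01 ± 0.47, adjusted p = 0.0468), and without treated liver 3 it did not pass (1.99, adjusted p = 0.0536). Vldlr, the receptor for very low density lipoprotein, read 6.53, 5.62, 5.62 and 7.05 against 7.79, 7.46, 7.92 and 7.54 (1.47 ± 0.28, adjusted p = 0.0235). Both genes were lower in the wild type livers with Y-linked signal, and their differences from the other wild type livers were 1.41 and 0.89, neither of which passed. Naaladl2 (1.05 ± 0.19) and Alg6, which builds the sugar precursor for N-glycosylation (1.03 ± 0.18), were the last 2 of the rises by size. Their differences from the wild type livers with Xist signal were 0.86 and 0.98, and neither passed there (adjusted p = 0.157 and 0.133).

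Socs2, a feedback inhibitor that growth hormone induces through STAT5, behaved differently from Nipal1 and Vldlr with respect to Xist. It read 8.74, 8.96, 9.12 and 8.90 in wild type and 10.78, 10.20, 10.48 and 9.96 in metformin-treated livers, a rise of 1.42 ± 0.31 (adjusted p = 0.0349). The 4 wild type livers lay within a narrow range whatever their Xist signal, and the difference from those with Xist signal was 1.53 (adjusted p = 0.158). Untreated transgenic livers read 9.85 to 11.50. Vnn1, a pantetheinase gene that the fatty acid receptor PPARα switches on, read 10.19, 9.86, 9.59 and 10.33 against 11.21, 11.46, 11.48 and 11.04 (1.30 ± 0.28, adjusted p = 0.0332). Its difference from the livers with Xist signal was 1.04 (adjusted p = 0.243).

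The 10 falls are given with what each gene encodes. Nfic, a nuclear factor I protein that binds many hepatocyte promoters, read 10.17, 10.11, 10.19 and 10.07 in wild type and 9.17, 9.10, 8.15 and 9.09 in metformin-treated livers, a difference of -1.26 ± 0.19 (adjusted p = 0.0109). Liver 3 was the lowest, and without it the difference was -1.01 (adjusted p = 0.00202). Bcl3, an atypical IκB protein that works with NF-κB, read 9.16, 9.16, 9.53 and 9.61 against 8.29, 8.22, 7.84 and 8.24 (-1.22 ± 0.16, adjusted p = 0.0078). Zfhx2, a zinc finger homeobox gene, read 7.76, 7.81, 7.68 and 7.70 against 6.76, 6.86, 6.22 and 6.94 (-1.04 ± 0.13, adjusted p = 0.00727). In these 3 genes the wild type livers with Xist and with Y-linked signal were alike, and the differences from the former were -1.24, -1.24 and -1.03. None of the 3 passed there (adjusted p = 0.0927, 0.0855 and 0.0763), and Zfhx2 passed with the covariate (adjusted p = 0.0472).

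Tle3, a Groucho corepressor, read 7.57 to 8.39 in wild type and 6.62 to 7.29 in metformin-treated livers (-0.99 ± 0.23, adjusted p = 0.0428), and without treated liver 3, the lowest, it did not pass (-0.84, adjusted p = 0.0536). Mn1, a transcriptional coactivator, read 8.18 to 8.59 against 7.10 to 7.46 (-1.0 ± 0.18, adjusted p = 0.0201). Cecr2, a chromatin remodelling factor with a bromodomain, read 7.68 to 8.37 against 6.52 to 7.42 (-0.94 ± 0.20, adjusted p = 0.0323). Against the wild type livers with Xist signal the differences of Tle3, Mn1 and Cecr2 were -0.89, -0.95 and -1.05, and none passed.

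The other genes of the 10 falls were Lad1, Nectin1, Denn2b and Arsa. Lad1, a basement membrane anchor protein, read 7.04, 7.50, 7.61 and 7.30 in wild type and 5.83, 6.12, 6.40 and 6.01 in metformin-treated livers (-1.27 ± 0.25, adjusted p = 0.0246). Nectin1, a cell adhesion molecule of adherens junctions, read 9.53, 9.58, 9.66 and 9.47 against 8.64, 8.64, 8.37 and 8.60 (-1.0 ± 0.13, adjusted p = 0.0078). Denn2b, a Rab exchange factor, fell by 1.02 and Arsa, the lysosomal arylsulphatase A, by 0.97. Arsa was the one of these whose difference shrank most against the wild type livers with Xist signal, to -0.59, and it did not pass without treated liver 3 (-0.97, adjusted p = 0.0519).

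**Figure D2:**
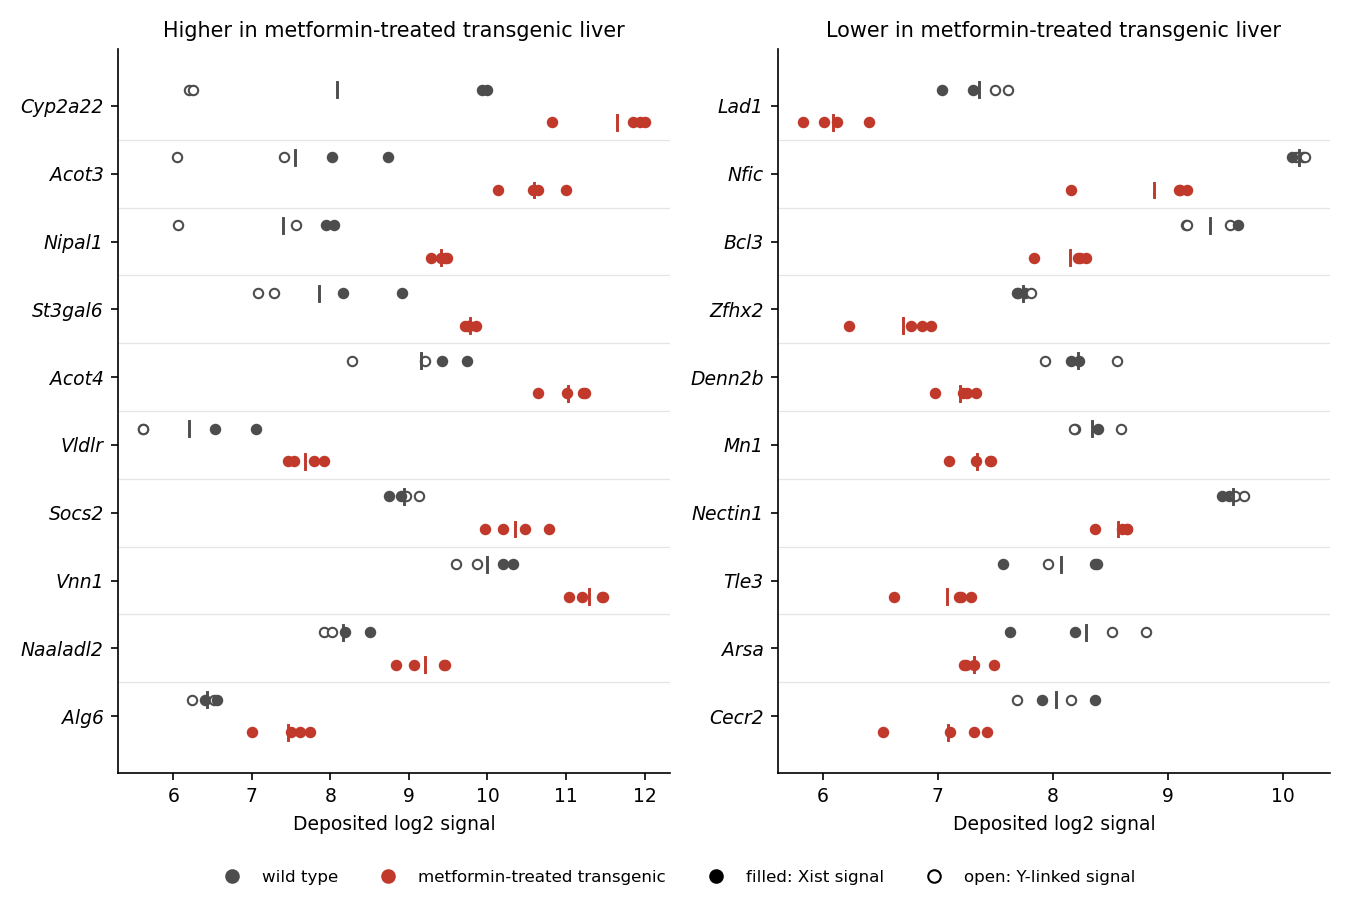
Deposited log2 signal of the 10 largest rises (left) and the 10 largest falls (right) among genes that passed and whose groups do not overlap. Each point is 1 liver, filled for Xist signal and open for Y-linked signal, and bars mark the mean of 4. On the left the open wild type points of Cyp2a22 (6.19 and 6.25) lie far below the filled ones (9.93 and 9.99).

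Among all 364 genes, 12 passed against the wild type livers with Xist signal as well, 7 higher and 5 lower. In a limma fit of only the 8 arrays with the same split, added after seeing the data, 0 genes passed, these 12 included (adjusted p = 0.0783 for both St3gal6 and Cd36). Cd36, the fatty acid uptake receptor, read 10.82, 10.25, 10.06 and 10.81 in wild type and 11.47, 11.49, 11.61 and 11.38 in metformin-treated livers, a rise of 1.00 ± 0.15 (adjusted p = 0.0109). Against the livers with Xist signal it was 0.67 (adjusted p = 0.031), and untreated transgenic livers stood at the same height as treated ones, 11.51 to 11.58. Mier1, a chromatin corepressor gene, read 7.46, 7.59, 7.74 and 7.70 against 8.33, 8.36, 8.23 and 8.30 (0.68 ± 0.08, adjusted p = 0.0048). Alg11, a mannosyltransferase of the N-glycosylation pathway, read 8.87, 8.97, 9.04 and 9.08 against 9.65, 9.56, 9.69 and 9.58 (0.63 ± 0.07, adjusted p = 0.0048). Tfb2m, which starts transcription of mitochondrial DNA, read 9.04, 9.26, 9.27 and 9.10 against 9.74, 9.72, 9.90 and 9.72 (0.60 ± 0.09, adjusted p = 0.00942). In each of these 3 the wild type livers with Xist signal lay no nearer to the metformin-treated livers than the others did on average, and the difference from them was 0.73, 0.65 and 0.70. The phosphatase gene Ppp6c (0.47 ± 0.06) and the zinc finger gene Zfp317 (0.53 ± 0.10) were the other 2 that rose besides St3gal6.

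On the lower side, Sphk2, which makes the signalling lipid sphingosine 1-phosphate, read 8.84, 8.48, 8.65 and 8.73 in wild type and 7.74, 7.99, 7.79 and 7.84 in metformin-treated livers (-0.83 ± 0.10, adjusted p = 0.00666). Wipf2, a partner of the actin regulator N-WASP, read 7.60, 7.58, 7.48 and 7.66 against 6.94, 6.79, 6.54 and 6.83 (-0.81 ± 0.09, adjusted p = 0.0048). Zyx, which encodes the focal adhesion protein zyxin, read 8.47, 8.51, 8.40 and 8.66 against 7.92, 7.90, 7.68 and 7.86 (-0.67 ± 0.08, adjusted p = 0.00727). All 3 had clear gaps between the groups. Maz, a zinc finger factor (-0.65 ± 0.09), and the small nucleolar RNA gene Snord42a (-0.69 ± 0.09) also fell. Untreated transgenic livers read 8.35 to 8.67 for Sphk2, 7.67 to 7.82 for Wipf2 and 8.18 to 8.37 for Zyx, above every metformin-treated liver. These 12 genes were chosen after their values were seen, except St3gal6 and Cd36, which the naming rule also takes.

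Promoters were examined for 5 of these 12 genes that have 1 entry each in the RefSeq promoter table, to show how they are made. The windows are the 250 bases before the 1 start that the table lists for each gene, 5′ to 3′ on the gene's strand in GRCm38.p6, with every GGGCGG or its reverse complement CCGCCC (the GC box) in capitals. Cd36 (chr5:17835897-17836146, minus strand), Ppp6c (chr2:39226350-39226599, minus strand) and Tfb2m (chr1:179546277-179546526, minus strand) rose, and Wipf2 (chr11:98863348-98863597, plus strand) and Zyx (chr6:42349578-42349827, plus strand) fell. For Ppp6c and Wipf2 the window adjoins the outer limit of the annotated gene. The listed start lies inside the annotated gene for Cd36 (chr5:17781690-17888959), Tfb2m (chr1:179528052-179546305) and Zyx (chr6:42349511-42360213), so that the windows of Cd36 and Zyx lie within the gene and that of Tfb2m overlaps its edge.
Cd36: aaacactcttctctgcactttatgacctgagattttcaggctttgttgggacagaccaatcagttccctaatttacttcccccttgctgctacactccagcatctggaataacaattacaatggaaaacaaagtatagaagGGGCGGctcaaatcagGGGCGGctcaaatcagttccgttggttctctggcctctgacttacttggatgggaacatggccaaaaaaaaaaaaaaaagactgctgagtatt
Ppp6c: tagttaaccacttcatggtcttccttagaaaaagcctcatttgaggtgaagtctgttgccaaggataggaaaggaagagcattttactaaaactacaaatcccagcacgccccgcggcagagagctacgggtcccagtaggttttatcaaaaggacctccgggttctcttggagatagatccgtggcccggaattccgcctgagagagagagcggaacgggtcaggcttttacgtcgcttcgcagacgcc
Tfb2m: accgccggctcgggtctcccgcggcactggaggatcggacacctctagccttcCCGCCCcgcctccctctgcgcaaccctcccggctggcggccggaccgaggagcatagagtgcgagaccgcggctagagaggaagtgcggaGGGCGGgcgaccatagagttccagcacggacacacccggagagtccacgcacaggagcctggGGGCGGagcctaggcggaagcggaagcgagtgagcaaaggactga
Wipf2: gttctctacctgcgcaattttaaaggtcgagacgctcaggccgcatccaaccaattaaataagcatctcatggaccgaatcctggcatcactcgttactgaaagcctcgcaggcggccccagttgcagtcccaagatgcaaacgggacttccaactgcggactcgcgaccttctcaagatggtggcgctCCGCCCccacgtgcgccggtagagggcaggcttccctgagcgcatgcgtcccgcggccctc
Zyx: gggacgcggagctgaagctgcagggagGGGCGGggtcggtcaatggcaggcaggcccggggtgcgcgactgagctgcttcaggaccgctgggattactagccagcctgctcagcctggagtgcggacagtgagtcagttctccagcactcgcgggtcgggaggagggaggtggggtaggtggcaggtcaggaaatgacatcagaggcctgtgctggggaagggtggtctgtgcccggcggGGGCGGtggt
The GC content of these windows was 43.2% for Cd36, 51.2% for Ppp6c, 69.2% for Tfb2m, 59.6% for Wipf2 and 67.6% for Zyx. They hold 2, 0, 3, 1 and 2 GC boxes in that order.

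Over all promoters in the table, genes that fell had more G and C before the listed start. The table covered 180 of 212 protein-coding genes that fell (84.9%), 121 of 148 that rose (81.8%) and 11506 of 14236 tested (80.8%). GC content was averaged over the windows of a gene that had several. Its median was 64.0% for genes that fell and 59.2% both for genes that rose and for all tested. A GC box stood in at least 1 window of 73.3% of the genes that fell, 61.2% of those that rose and 59.0% of all. The forkhead core GTAAACA or its reverse complement TGTTTAC stood in at least 1 window of 5 genes that fell (2.78%). It did so for 0 of 121 genes that rose and 2.85% of all. These are counts of letters in a short window, given without a test, and the GC box was chosen after the promoters were seen.

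Other features of the 2 sets also differed in description. Symbols that begin with Zfp or Zbtb, zinc finger proteins, made up 15 of 216 genes that fell (6.94%) and 5 of 148 that rose (3.38%), against 2.26% of all tested genes. X-linked genes made up 10 of the 148 that rose (6.76%), 6 of the 216 that fell (2.78%) and 2.72% of all. Among the X-linked genes that rose was Eif2s3x, a translation initiation factor gene that escapes X inactivation. It read 10.69, 10.19, 10.48 and 10.77 in wild type and 11.22, 11.21, 11.21 and 11.22 in metformin-treated livers (0.68 ± 0.11, adjusted p = 0.0121), and untreated transgenic livers read 10.22 to 10.32. Sp1, a zinc finger factor chosen after its values were seen, read 8.34, 8.39, 8.49 and 8.39 against 8.0, 7.86, 7.84 and 8.01 (-0.47 ± 0.09, adjusted p = 0.0214).

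The 364 genes did not stand at the same place in untreated transgenic livers. Relative to the wild type mean, genes that rose had medians of 0.46 to 0.54 over the 4 metformin-treated arrays, and genes that fell had medians of -0.63 to -0.46, which their selection fixes. In the 4 untreated transgenic arrays the medians were 0.01 to 0.04 and -0.05 to 0.05. Single genes moved both ways there. Of the 148 that rose, 19 passed in the same and 10 in the opposite direction between untreated transgenic and wild type livers, by limma's adjusted p. Of the 216 that fell, 19 and 14 did, and of all 14953 tested genes 1189 and 922. Since the same wild type arrays serve both sets of values, these are given side by side only.

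**Figure D3:**
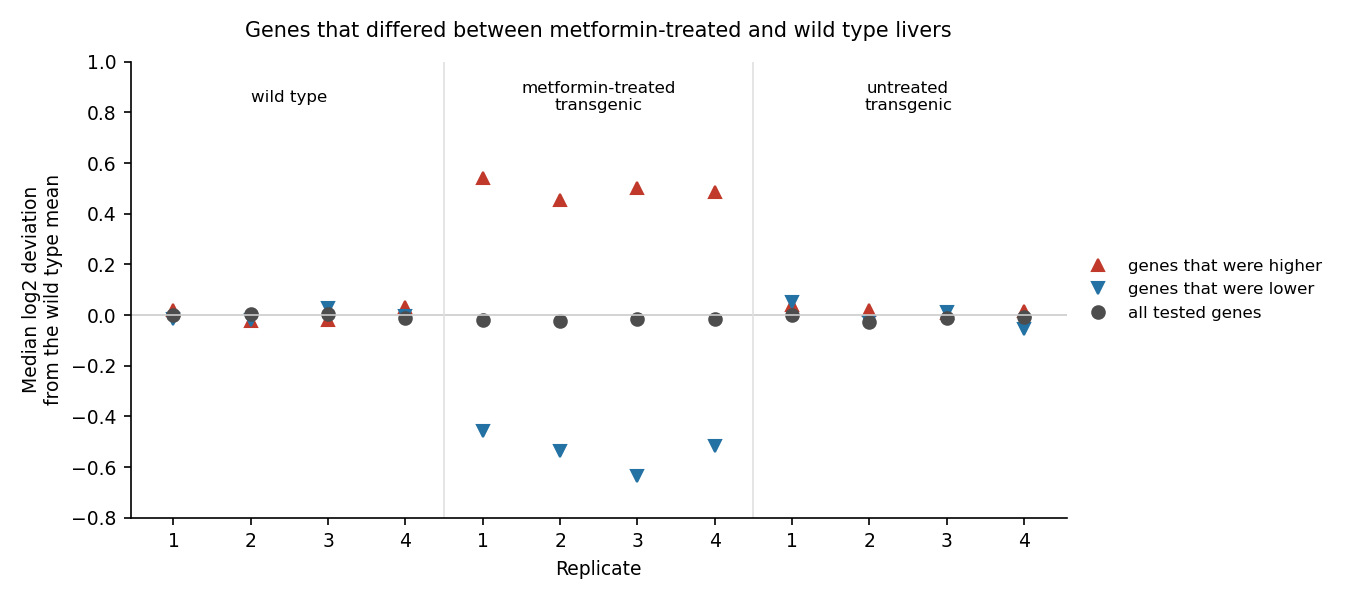
Median log2 deviation from the wild type mean (vertical axis) over the 148 genes that rose, the 216 that fell and all 14953 tested genes, for each of the 12 livers (horizontal axis). In the untreated transgenic livers the medians of both sets lie between -0.05 and 0.05, while single genes moved both ways.

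Genes that differed most between untreated transgenic and wild type livers stood mostly nearer to wild type than to untreated transgenic in the metformin-treated livers. They are the 10 highest and 10 lowest differences between untreated transgenic and wild type livers in these same data, so their transgenic levels are a description. None of the 20 passed against wild type by limma's adjusted p, where 0.990% of all tested genes rose and 1.44% fell. At an unadjusted limma p under 0.05, 2 were higher and 0 lower (7.51% and 9.52% of all tested genes). In 4 of the 20 treated livers lay wholly above wild type and in 2 wholly below, where 6.21% and 8.23% of all tested genes do so. In a fit of only the 8 arrays compared 1 of the 20 passed, Lepr (adjusted p = 0.037), where that fit called 1.51% of all tested genes higher and 1.93% lower. The metformin-treated mean was nearer to wild type than to untreated transgenic for 19 of the 20. It lay at a median of 18.6% of the way from wild type to transgenic for the 10 raised genes. For the 10 lowered ones the median was 1.01%. The genes were picked by their transgenic difference in the same arrays, which favours such positions. No share over all tested genes is given, so the positions cannot decide if these genes stood out. Treated arrays as a whole also had a higher mean r with wild type (0.9698 to 0.9835) than with untreated transgenic arrays (0.9481 to 0.9623). All treated livers had Xist signal and all untreated transgenic livers Y-linked signal. The fit pools the wide spread of the untreated transgenic livers, with standard errors of 0.33 to 1.01, so moderate differences in either direction would not have been detectable.

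Among the lowered genes treated and wild type livers overlapped for all but Scnn1a and Car1. Thrsp, which promotes lipid synthesis in response to thyroid hormone, read 11.14, 11.68, 11.21 and 11.67 in wild type and 11.18, 11.40, 11.55 and 11.61 in metformin-treated livers, a difference of 0.01 (95% interval -0.86 to 0.87). Wild type and treated livers overlapped fully, and untreated transgenic livers read 7.95, 10.27, 8.23 and 9.36. Dio1, the deiodinase that activates thyroid hormone, stood at 10.61 to 10.89 in wild type, 10.66 to 11.09 in metformin-treated and 5.99 to 10.24 in untreated transgenic livers. The carboxylesterase gene Ces1f stood at 11.64 to 11.94, 11.55 to 11.87 and 6.37 to 10.88 in the same order. Scnn1a, a sodium channel subunit, and Car1, a carbonic anhydrase, lay wholly below wild type, with differences of -0.53 and -0.52 that did not pass. Mug2, Ces1e, Ces1b, Slc22a30 and Aqp8 overlapped wild type, with differences from -0.24 to 0.33.

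Among the raised genes the livers were less uniform. Lepr, the leptin receptor, read 6.30, 5.45, 4.92 and 6.45 in wild type and 7.77, 8.09, 8.78 and 6.82 in metformin-treated livers, a difference of 2.09 (95% interval 0.39 to 3.78, adjusted p = 0.189). Every treated liver lay above wild type and 3 of the untreated transgenic livers lay higher still, at 11.34 to 11.74. The wild type livers with Xist signal were the 2 higher ones. Against them the difference was 1.49 (adjusted p = 0.204 in the 8-array fit with that split). Gpx3, the secreted glutathione peroxidase, read 7.31, 7.47, 6.72 and 6.70 in wild type and 6.91, 9.81, 11.60 and 6.89 in metformin-treated livers. Treated livers 1 and 4 stood within the wild type range and livers 2 and 3 far above it. Igfbp1, a secreted protein that binds insulin-like growth factors, read 9.64, 9.49, 8.66 and 9.06 against 9.77, 10.72, 9.75 and 9.79, a difference of 0.79 (95% interval -0.60 to 2.19).

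Epdr1 and the anion exchanger gene Slc4a9 were likewise highest in treated liver 3, at 7.44 and 7.22, where the other treated livers read at most 6.31 and 5.90. Pdk4, which inhibits pyruvate dehydrogenase, was highest in treated liver 2, at 9.33 against 6.99 to 8.06 in the others. Atp6v0d2, a vacuolar proton pump subunit, lay nearer to untreated transgenic than to wild type. It read 8.22, 5.81, 5.25 and 8.27 in wild type and 8.97, 9.31, 9.51 and 9.22 in treated livers (2.37, adjusted p = 0.078), and its difference from the wild type livers with Xist signal was 1.00. Afp, the fetal serum protein, stood at 5.30 to 5.45 in treated livers, against 5.32 to 5.52 in wild type and 5.64 to 10.31 in untreated transgenic livers. Cd14 and Ppp1r3g, the lipopolysaccharide co-receptor and a glycogen-targeting subunit, differed by 0.21 and 0.49.

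**Figure D4:**
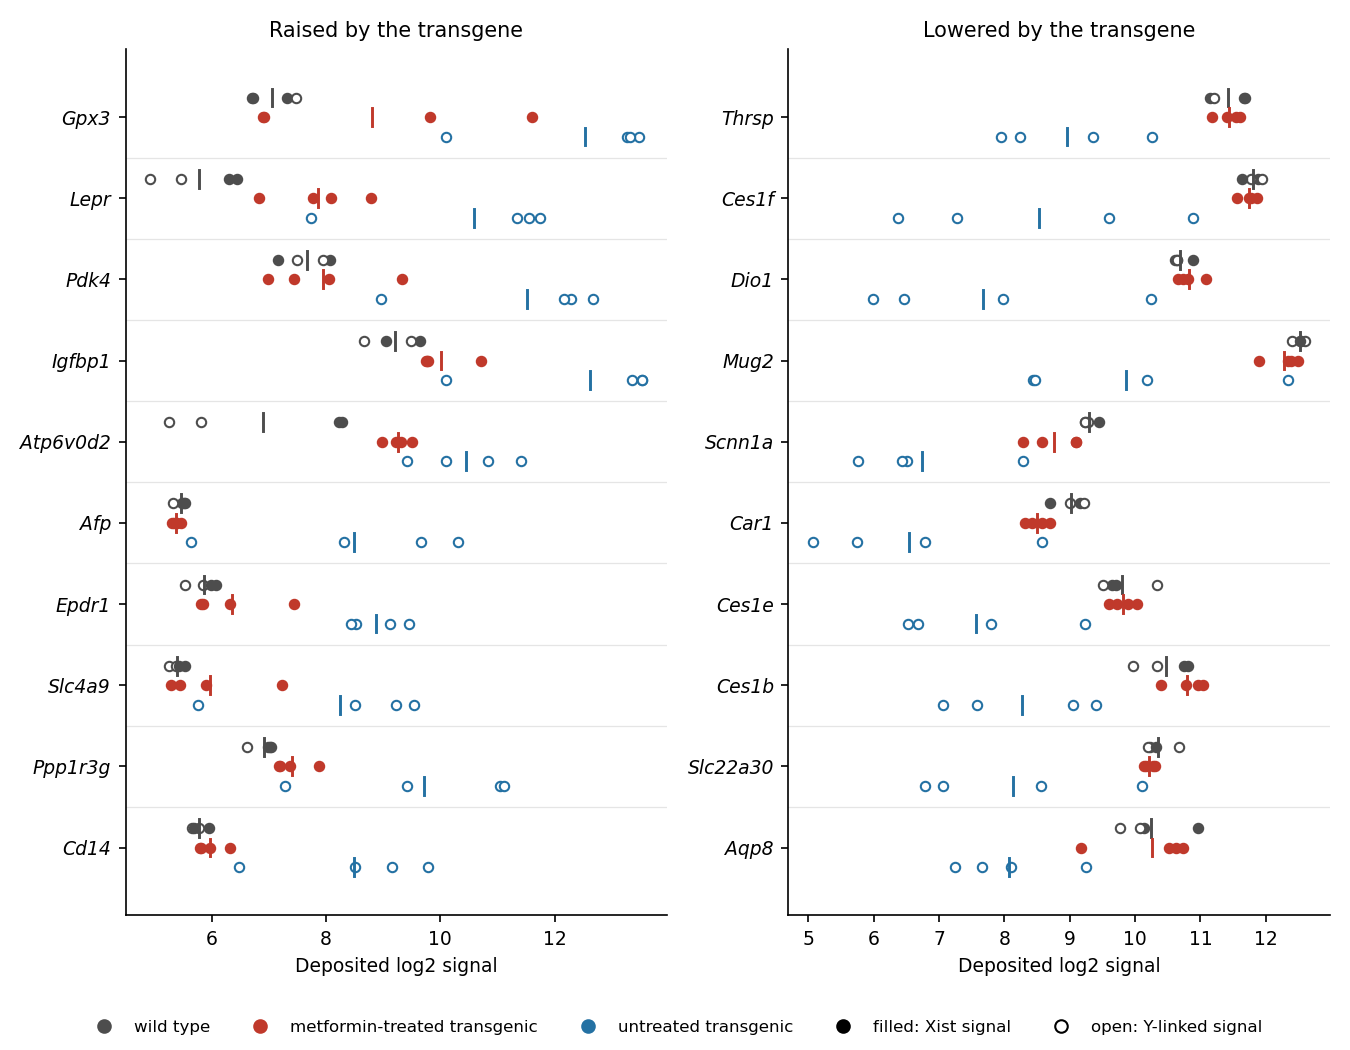
Deposited log2 signal (horizontal axes) of the 10 genes most raised (left) and the 10 most lowered (right) in untreated transgenic livers, in the 3 groups. Points are single livers, filled for Xist signal and open for Y-linked signal, and bars are means. The mean of treated livers lies nearer to wild type than to untreated transgenic for 19 of the 20 genes, which their selection favours. Gpx3 runs from 6.89 to 11.60 among treated livers.

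FoxO targets as a wider group showed no call. Of 45 measured members 0 passed by limma in either direction, and 2 were higher and 3 lower at an unadjusted p under 0.05, where 7.51% of all tested genes were higher and 9.52% lower, 17.0% in all. The median difference was 0.05. A single member passed with only the 8 arrays, Cited2, a transcriptional coregulator gene (-0.56, adjusted p = 0.0266). Pck1, the gluconeogenic phosphoenolpyruvate carboxykinase, read 12.99, 13.04, 12.64 and 12.83 in wild type and 13.17, 13.26, 12.83 and 13.22 in treated livers, a difference of 0.24 (95% interval -0.11 to 0.60). The gluconeogenesis list had 0 of 14 members called (2 higher and 1 lower unadjusted; median 0.11), and G6pc, the glucose-6-phosphatase gene, differed by 0.12 (95% interval -0.37 to 0.61). For these genes the intervals leave room for moderate changes.

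In the list of insulin, growth hormone and IGF signalling 1 of 32 members rose, Socs2, and 1 fell, where 0.990% of all tested genes rose and 1.44% fell. The one that fell was Foxa1, a pioneer factor of hepatocyte genes, at 8.50, 8.66, 8.85 and 8.62 in wild type and 8.18, 8.23, 7.90 and 8.18 in treated livers (-0.54 ± 0.11, adjusted p = 0.0298). Against the wild type livers with Xist signal the difference was -0.44 (adjusted p = 0.219). Untreated transgenic livers read 9.31 to 9.69, above wild type. The list median was -0.11. In 11 of the 32 the groups did not overlap (14.4% of all tested genes), 4 with treated livers above and 7 below, where 6.21% and 8.23% of all tested genes do so. Among the 7 were Irs1 and Irs2, the docking proteins of the insulin receptor (-0.61, adjusted p = 0.297, and -0.50, adjusted p = 0.497), and Stat5a and Stat5b (-0.40 and -0.41), none of which passed. Stat5a passed with only the 8 arrays (adjusted p = 0.0343).

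AMPK is the kinase through which metformin is best known to act. The list of AMPK subunits and metformin transporters, which also holds Stk11, had 1 of 13 members higher and 0 lower (0.990% and 1.44% of all tested genes). Prkaa2, the catalytic α2 subunit of AMPK, read 9.48, 9.67, 9.84 and 9.62 in wild type and 10.40, 10.34, 10.01 and 10.43 in treated livers, a rise of 0.64 ± 0.11 (1.56-fold, adjusted p = 0.0186). Liver 3 was the lowest of the treated livers and still above wild type. Against the livers with Xist signal the difference was 0.74 (adjusted p = 0.0855). In fits added after seeing the data it was 0.84 without liver 3 as well (adjusted p = 0.0249). It was 0.74 with the same split and only the 8 arrays (adjusted p = 0.0968). Of all tested genes 42 passed in the former of these fits and 0 in the latter. Stk11, which encodes the upstream kinase LKB1, read 9.73 to 10.04 in treated livers against 10.25 to 10.46 in wild type and did not pass (-0.41, adjusted p = 0.0574), while with only the 8 arrays it did (adjusted p = 0.0438). The median of the list was 0.09, and -0.02 against the livers with Xist signal.

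Fatty acid oxidation and ketogenesis had 3 of 29 members higher and 0 lower, where 0.990% of all tested genes rose and 1.44% fell, with a median of 0.15 against -0.02 over all genes. The 3 were Vnn1, Acadm and Bdh1. Acadm, the medium-chain acyl-CoA dehydrogenase, read 12.02, 11.76, 11.86 and 11.75 in wild type and 12.22, 12.28, 12.30 and 12.17 in treated livers (0.40 ± 0.09, adjusted p = 0.0444). Bdh1, which interconverts the ketone bodies, read 11.10, 10.60, 11.16 and 11.17 against 11.53, 11.50, 11.51 and 11.46 (0.49 ± 0.11, adjusted p = 0.0444). Both genes stood in a narrow band in treated livers. In 25 of the 29 the difference was above 0, and in 8 treated livers lay wholly above wild type, with 0 wholly below (6.21% and 8.23% of all tested genes). The 5 of these 8 that did not pass were Acadl (0.42), Ehhadh (0.51), Slc25a20 (0.35), Acads (0.33) and Decr1 (0.29), enzymes and a carrier of mitochondrial and peroxisomal β-oxidation. The median was 0.16 against the livers with Xist signal, where no member passed by limma (adjusted p = 0.243 for Vnn1, 0.265 for Acadm and 0.317 for Bdh1). Bdh1 did not pass with only the 8 arrays (adjusted p = 0.0645), and Ehhadh did (adjusted p = 0.0496).

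In mTORC1 control and autophagy 2 of 38 members fell and 0 rose (1.44% and 0.990% of all tested genes). They were Tfeb and Tfe3, related factors that switch on lysosome and autophagy genes. Tfeb read 7.65, 7.57, 7.49 and 7.39 in wild type and 6.93, 6.90, 7.05 and 7.19 in treated livers (-0.51 ± 0.09, adjusted p = 0.0186). Tfe3 read 8.65, 8.53, 8.45 and 8.63 against 8.15, 7.99, 7.63 and 8.02 (-0.62 ± 0.13, adjusted p = 0.0331). The groups did not overlap for either gene, and against the livers with Xist signal the differences were -0.51 and -0.69, which did not pass. Ulk1, the kinase that starts autophagy (-0.59, adjusted p = 0.106), Atg2a (-0.57, adjusted p = 0.0917), Rptor, the scaffold of mTORC1 (-0.36, adjusted p = 0.0761), and Eif4ebp2 (-0.59, adjusted p = 0.0642) also lay wholly below wild type without passing. In all, 7 members lay wholly below and 3 wholly above, where 8.23% and 6.21% of all tested genes do so. The 3 above were Atg12 (0.38), Bnip3 (0.43) and Rheb, the activator of mTORC1 (0.17), and the median of the whole list was -0.05. Atg12 passed with only the 8 arrays (adjusted p = 0.0483), and Eif4ebp2 without treated liver 3 (-0.41, adjusted p = 0.0318).

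Iron handling had 1 member of 21 lower and 0 higher (1.44% and 0.990% of all tested genes), with a median of 0.0079. Hjv, hemojuvelin, the coreceptor that signals for hepcidin, read 10.92, 10.76, 10.93 and 10.91 in wild type and 10.31, 10.15, 10.48 and 9.95 in treated livers (-0.66 ± 0.13, adjusted p = 0.0287). Its difference from the livers with Xist signal was -0.69, which did not pass. Tfrc, the transferrin receptor, read 6.44, 6.97, 5.80 and 6.04 against 7.37, 8.03, 7.45 and 7.43 and did not pass (1.26, adjusted p = 0.078). Alas1, the first enzyme of haem synthesis in liver, was 1.24 higher without passing (adjusted p = 0.0969). These 2 were the members wholly above wild type (6.21% of all tested genes), and Hjv, Tfr2 (-0.16) and Steap3 (-0.38) were the 3 wholly below (8.23%). The lowest difference of the list was that of Alas2, the erythroid form of the enzyme (-1.32, adjusted p = 0.207), with overlapping groups. Tfrc passed with only the 8 arrays (adjusted p = 0.0318), and Slc40a1, the iron exporter ferroportin, without treated liver 3 (0.39, adjusted p = 0.0349).

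Lists of other lipid and sugar pathways had 0 called members by limma with all arrays, and the counts below are at an unadjusted p under 0.05, where 7.51% of all tested genes were higher and 9.52% lower. Cholesterol synthesis and uptake had a median of -0.20 over 21 members, with 0 higher and 3 lower. In 5 of the 21 treated livers lay wholly below wild type (8.23% of all tested genes), among them Srebf2, the master factor of the pathway (-0.58, adjusted p = 0.122), Scap, its escort protein (-0.29, adjusted p = 0.0824), and Fdps, a synthase of the pathway (-0.62, adjusted p = 0.0945). Fatty acid and triglyceride synthesis had a median of -0.03 over 25 members (3 higher and 3 lower unadjusted). Srebf1, its main factor, differed by -0.35 (95% interval -0.80 to 0.10). Glycolysis (median 0.05 over 20; 3 higher and 1 lower unadjusted), glycogen metabolism (0.07 over 16; 2 and 1) and bile acids (0.07 over 29; 6 and 3) were near the median of all genes. In the bile acid list Cyp8b1, which makes cholic acid, read 11.83, 11.78, 11.37 and 11.12 in wild type and 9.75, 10.80, 10.61 and 11.02 in treated livers without passing (-0.98, adjusted p = 0.172).

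The absence of calls in these lists depended on the arrays used. With only the 8 arrays compared, Srebf2 and Fdps were lower (adjusted p = 0.0392 and 0.0409), as were Mlxipl, the carbohydrate response factor of the glycolysis list (-0.62, adjusted p = 0.02), and the organic anion transporter gene Slco1a1 (-2.31, adjusted p = 0.0206). Slc2a2, the liver glucose transporter (0.50, adjusted p = 0.0297), and Abcc4, an efflux pump gene (0.90, adjusted p = 0.0122), were higher in that fit. Without treated liver 3, the liver glycogen synthase gene Gys2 (0.62, adjusted p = 0.0354), the phosphorylase kinase subunit gene Phka2 (0.38, adjusted p = 0.023) and Lpin1, a phosphatidate phosphatase gene (0.99, adjusted p = 0.0403), were higher. So were the canalicular transporter genes Abcc2 (0.33, adjusted p = 0.0334) and Abcg8 (0.77, adjusted p = 0.0428). These genes were chosen by their passing in those fits.

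Mitochondrial respiration, a target of metformin, showed no called subunit with all arrays. Complex I had a median of -0.06 over 35 members (2 higher and 4 lower at an unadjusted p under 0.05), and complexes II to V had -0.06 over 37 (2 and 4). At that threshold 7.51% of all tested genes were higher and 9.52% lower, so these counts are near the shares of any gene. Treated liver 3 stood apart here too. The mean level of the complex I list was 10.53 in it, against 10.01 to 10.13 in the other treated livers and 10.20 to 10.23 in wild type. Without it 6 subunits of complex I and 6 of complexes II to V were lower and 0 higher, with medians of -0.18 and -0.15, where 3.30% of all tested genes were lower and 1.88% higher. These counts thus rest on the choice of livers.

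DNA replication and mitosis had the highest median after the female-biased list, 0.40 over 39 members, with 0 called by limma and 13 higher and 0 lower at an unadjusted p under 0.05 (7.51% and 9.52% of all tested genes). Mki67, the proliferation marker, read 6.57, 5.51, 6.04 and 5.97 in wild type and 7.41, 6.76, 6.98 and 6.48 in treated livers (0.88, 95% interval 0.17 to 1.59, adjusted p = 0.185). Top2a, the mitotic topoisomerase, read 5.24, 4.67, 5.06 and 5.12 against 6.29, 5.49, 6.92 and 5.35 (0.99, adjusted p = 0.13). Livers 1 and 3 were the high ones for both. The median was 0.30 against the livers with Xist signal and 0.22 without treated liver 3.

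Among the other lists with 0 calls by limma with all arrays, medians lay between -0.17 and 0.17 for urea cycle and amino acid breakdown (0.04 over 32), secreted plasma and clotting proteins (-0.00 over 37), complement and acute phase (-0.03 over 31), unfolded protein response (-0.05 over 31), heat shock and immediate early genes (-0.17 over 28), NRF2 targets (0.06 over 29), xenobiotic cytochromes (0.17 over 28), circadian clock (0.10 over 19) and interferon-stimulated genes (-0.04 over 26). At an unadjusted p under 0.05 their higher and lower members numbered 4 and 0, 0 and 1, 1 and 2, 1 and 4, 1 and 4, 2 and 1, 7 and 2, 5 and 2, and 1 and 3 in that order, against 7.51% and 9.52% of all tested genes. In the clock list Nampt, the enzyme that limits NAD salvage, read 9.39, 9.59, 9.33 and 9.53 in wild type and 10.24, 10.49, 10.15 and 10.51 in treated livers and did not pass (0.89, adjusted p = 0.0698), while with only the 8 arrays it did (adjusted p = 0.0093). Hspa8, the constitutive heat shock chaperone, read 12.50 to 12.52 against 12.60 to 12.78 (0.19, adjusted p = 0.168). List members named without a pass in these lists were chosen after their values were seen, except those that open a list. Other members that passed with only the 8 arrays were Bckdhb (0.43), Gldc (-0.52), Myc (-1.17) and Nfil3 (-0.56), and those that passed without treated liver 3 were F8 (0.42), Hspe1 (-0.39), Abcc2 and Per3 (1.14).

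Sex-biased liver genes moved with the division of the arrays. In the female-biased list 6 of 26 members rose and 0 fell (0.990% and 1.44% of all tested genes), with a median of 1.86 that was 0.48 against the wild type livers with Xist signal. They included Acot3, Acot4, Cd36 and Cux2, a repressor that is present in female liver. Cux2 read 6.32, 6.34, 6.38 and 7.34 in wild type and 8.21, 8.12, 7.08 and 8.09 in treated livers (1.28 ± 0.27, adjusted p = 0.0325), so that treated liver 3 lay within the wild type range. With only the 8 arrays 5 members passed, with Cyp2a22 (adjusted p = 0.0642) and Cux2 (adjusted p = 0.0521) lost and Fmo2 gained (1.86, adjusted p = 0.0343). The male-biased list had 0 of 22 called by limma, 0 higher and 9 lower at an unadjusted p under 0.05 (9.52% of all tested genes), and a median of -1.13 that was -0.45 against the livers with Xist signal. With only the 8 arrays Slco1a1 and Susd4 (-1.81, adjusted p = 0.0377) were lower. Its first members are Cyp2d9, at 9.34, 11.43, 11.27 and 9.11 in wild type and 8.51 to 8.75 in treated livers, and Cyp4a12a, which has a near-identical neighbour that its probes may also read, at 7.45, 12.62, 12.62 and 5.46 against 4.99 to 6.57. In both, the high wild type livers were those with Y-linked signal.

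**Figure D5:**
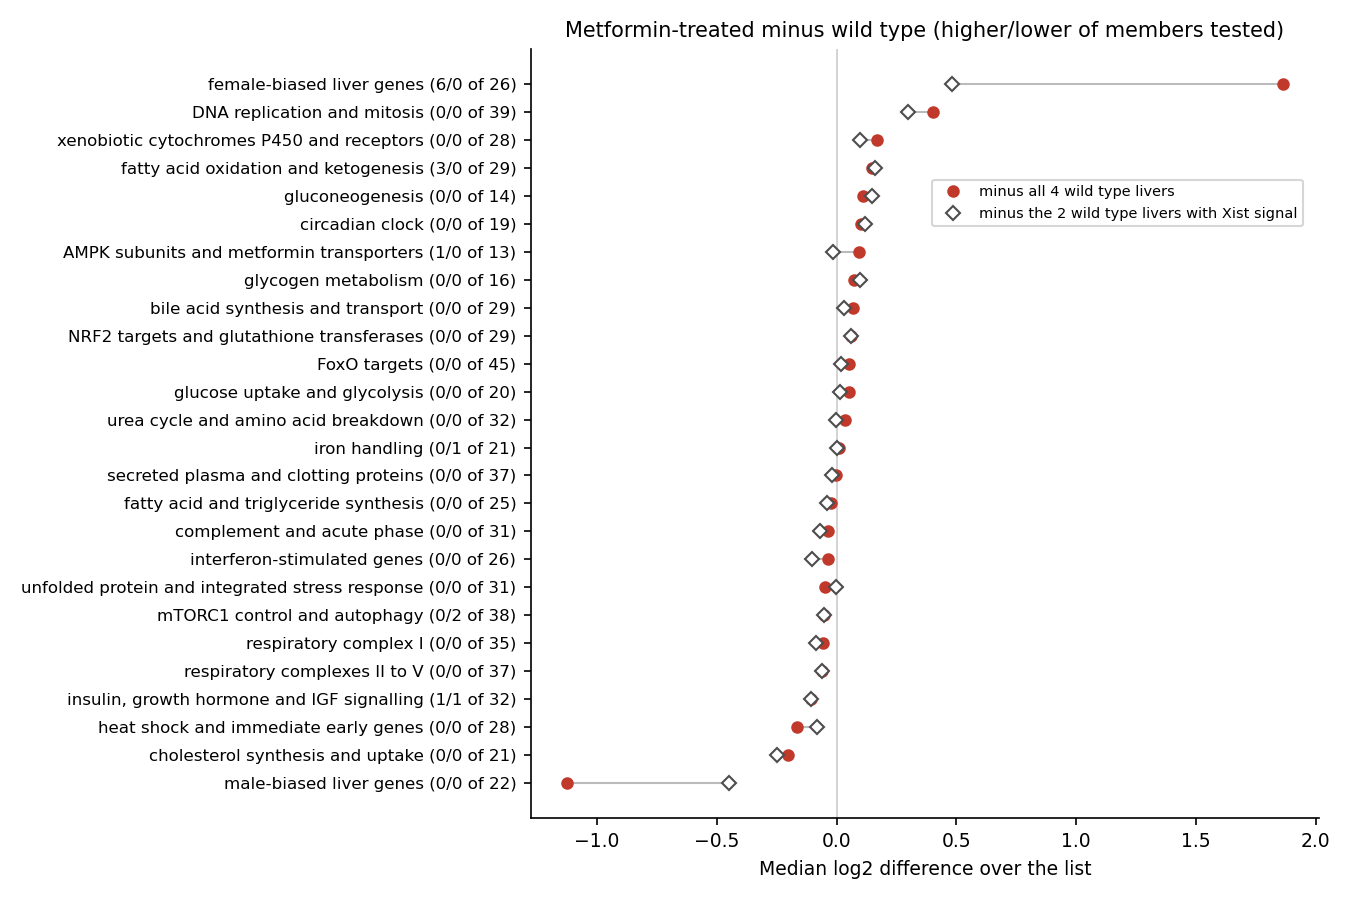
Median log2 difference (horizontal axis) of 26 gene lists, metformin-treated minus all 4 wild type livers (red) and minus the 2 wild type livers with Xist signal (open diamonds). Labels give members that rose, members that fell and members tested. The female-biased and male-biased lists move from 1.86 to 0.48 and from -1.13 to -0.45, and the other lists lie between -0.25 and 0.40.

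The tissue matched its label. The mean of 8 hepatocyte markers, which include Alb, lay between 13.2 and 13.3 in all 8 livers. Of the 11 cell marker lists, with 4 to 21 tested members each, only that of cholangiocytes and progenitors held a called gene. There 1 of 10 members fell and 0 rose (1.44% and 0.990% of all tested genes). It was Krt8, a keratin of hepatocytes and bile duct cells, at 11.54, 11.68, 11.55 and 11.85 in wild type and 11.07, 10.85, 11.03 and 11.12 in treated livers (-0.64 ± 0.13, adjusted p = 0.0291). Against the livers with Xist signal its difference was -0.68, which did not pass. Endothelial markers averaged 9.40, 9.25, 8.35 and 9.20 in treated livers and 9.07 to 9.30 in wild type. Kupffer cell markers averaged 8.50, 8.40, 7.83 and 8.40 against 7.93 to 8.53. Liver 3 was the lowest treated liver in both lists and the highest in the complex I list. Stellate cell and matrix markers had a median difference of -0.21 over 20 genes, with 0 called by limma and 1 higher and 6 lower at an unadjusted p under 0.05 (7.51% and 9.52% of all tested genes). In 0 of them treated livers lay wholly above wild type and in 4 wholly below (6.21% and 8.23%), and the mean level of the list was 8.18, 7.92, 7.83 and 8.04 in treated livers and 8.10 to 8.19 in wild type. With only the 8 arrays the periportal marker Gldc (-0.52) and Tfrc, also on the erythroid list, passed, and without liver 3 the pericentral marker Sp5 (-0.40) and the Kupffer cell marker Cd163 (1.04) did. In whole tissue, fewer cells of a type and less RNA per cell cannot be told apart, and the part of these shifts in the results was not tested.

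Treated livers varied more among themselves than wild type livers, with a median SD over genes of 0.157 against 0.107, and 0.0985 without liver 3. The 6 genes with the widest spread among treated livers were Gpx3, Trhde, A1bg, Gdap10, Cwc22 and Dusp1. Trhde, the enzyme that breaks down thyrotropin-releasing hormone, read 4.66, 4.69, 7.56 and 4.58. Gdap10 read 7.21, 7.47, 4.89 and 7.60, and Cwc22, a splicing factor gene, read 7.77, 7.57, 10.06 and 7.91. In all 3, liver 3 was the one apart, and without it Gdap10 passed against wild type (0.95, adjusted p = 0.0125; 0.32 with it, adjusted p = 0.799). Cwc22 also split the wild type livers, at 7.20, 11.29, 7.54 and 10.94, a split that does not follow their Xist signal. A1bg read 8.15, 6.90, 9.99 and 8.85 in treated livers and 9.25, 5.32, 5.20 and 9.45 in wild type, where it did follow it. Dusp1, an immediate early phosphatase gene, ranged from 7.94 in liver 3 to 10.66 in liver 2.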

How the data were processed

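RNA from 12 livers was hybridised to whole-transcript arrays in one colour. Titles gave the groups and replicate numbers and describe the replicates as biological. The authors deposited log2 signals, as their range shows, in a table of 35556 rows; Affymetrix Expression Console, with no version, appears in the submitters' processing notes, and for summarisation and normalization no method is given in the sources used here. Array medians lay between 5.69 and 5.85, and no further normalization was applied. The number of arrays limits the precision, and the values do not show the background level.

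The platform's annotation gave 21789 rows a single gene and 1621 more than one (23410 in all), and left 12146 unnamed. A RefSeq table matched 21698 rows by Entrez identifier and changed 0 symbols. For 999 genes with several rows, the brightest row on average over the 12 arrays was used. The test was limma's (version 3.58.1, R 4.3.3; a single fit by lmFit and eBayes over 12 arrays, two-sided, Benjamini-Hochberg over 14953 genes, threshold 0.05). On data simulated for this comparison with 14953 genes, 88 of 100 genes changed by 1 log2 unit and 97 of 100 changed by 2 were recovered, with 8 false calls. These figures hold for the simulated data only. In the real data the count of called genes ran from 70 to 775 with single arrays left out. The simulated figures therefore do not show how reliable the real calls are. Foxo3 had an exact permutation test.

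Splitting the wild type arrays by Xist, and a covariate of Xist minus the mean of Eif2s3y, Kdm5d and Uty, were alternatives in the same fit; the wild type arrays supply nearly all the information for the covariate. Others were the dim-gene filter, mean of rows, quantile normalization, median centring, array weights, eBayes settings, a replicate block, only 8 arrays, thresholds and each array left out. The comparison, the 39 gene lists (28 of pathways, 11 of cell markers) and the naming rule were chosen with earlier results of these data known. The rule takes Foxo3, the 10 highest and 10 lowest called differences with groups that do not overlap (without predicted genes, small RNAs or families of near-identical genes), up to 4 called members per list or else its first 2, the 6 genes of highest SD among treated arrays, the 20 transgene-responsive genes and the sex chromosome transcripts. Lists are described by counts and medians, with no set test. Promoters are RefSeq windows of GRCm38.p6.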

Additional observations from a re-analysis of the deposited data

Results flagged for a closer look

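In 118 genes, 236 groups of 4 arrays were examined for 1 array far from the other 3, and 21 groups had one; chance gives about 1 in 20. The genes include 6 taken for their wide spread among treated arrays, Gdap10, Trhde and Cwc22 among them, and others chosen by their differences, so the count is not comparable with that share. In 12 of the 21 groups the array apart was treated replicate 3. It was low for Cyp2a22 (10.82), Nfic (8.15), Bcl3 (7.84), Nectin1 (8.37), Tle3 (6.62), Foxa1 (7.90), Srebf2 (8.36), Cux2 (7.08), the endothelial receptor Stab1 (7.63) and Gdap10 (4.89), and high for Trhde (7.56) and Cwc22 (10.06). Treated replicate 2 was high for Igfbp1 (10.72) and low for Aqp8 (9.18). Wild type replicate 2 was low for Bdh1 (10.60), the interferon-induced Ifit1 (6.95), Hjv (10.76) and Ppp1r3g (6.62), wild type replicate 3 was low for the glycogen primer Gyg (7.59), and wild type replicate 4 was high for Cux2 (7.34) and Dio1 (10.89). Without treated replicate 3, Tle3 no longer passed and Gdap10 did, while Cyp2a22, Nfic, Bcl3, Nectin1, Foxa1 and Cux2 passed and Srebf2, Stab1, Trhde and Cwc22 did not, with or without it.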

How the results depend on the processing

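The count of 364 stayed within a factor of 1.5, between 323 and 515, with no dim-gene filter, the dimmest 50% left out, mean rows, quantile normalization, median centring and only the 8 arrays. It was 227 with trend and robust eBayes, 3057 with array weights, 28 at an adjusted p of 0.01, 837 at 0.1 and 18 with a log2 difference of at least 1. It was 14 with the sex covariate and 12 against the wild type arrays with Xist signal. In fits added after seeing the data it was 42 when treated replicate 3 was also left out, and 0 in a fit of the 8 arrays, where 1937 genes had an unadjusted limma p under 0.05. Leaving out each array in turn gave 70 to 775: for wild type replicates 1 to 4 it gave 87, 96, 91 and 137, for treated ones 150, 145, 775 and 70, and for untreated transgenic replicate 2 it gave 616. Same-numbered wild type and treated arrays deviated together with r of 0.07, 0.18, 0.15 and 0.01. Arrays of different number were not compared, so these values cannot decide if the numbers mark pairs. With the replicate number as a block the count was 135. The cause of these shifts was not tested.

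The Foxo3 difference turned to -0.052 with the covariate and -0.017 against the arrays with Xist signal, also with 8 arrays (-0.017), and ran from -0.069 to 0.21 with single arrays left out (-0.042 without wild type replicate 3, -0.069 and -0.022 without treated replicates 2 and 4). The 20 genes with the largest differences among those that passed without overlap kept their sign in every setting run, and of them 1 passed against the arrays with Xist signal, 2 with the covariate, 0 in the 8-array form of the former, and 5 to 20 with single arrays left out. Depth in the sense of reads does not apply to arrays, and dim genes are limited by an unknown background.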
